A study of Sus scrofa with 22 samples.

Results

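The genes described here are 10 genes of the contractile actin cytoskeleton that are known as targets of the transcription factor SRF: ACTA2, MYH11, CNN1, MYL9, TPM2, TAGLN, RHOB, FLNA, TPM1 and CNN2. They were listed by name, and the list was chosen by CPM values of these libraries (counts scaled to a common library total) as well as by function: TAGLN and RHOB were known to be higher in organoids finished in the medium CQ than in organoids kept in the growth medium LPM. All 10 were found, among 27376 genes counted in 16 of the libraries and 29850 genes counted in the other 6, with the same position and exonic length in both.

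RNA sequencing of pig foliate papillae, taste bud-bearing folds at the tongue's edge, and of organoids grown from them gave 22 libraries in 6 groups. The papillae came from 5 pigs (n = 5), and the passage 1 organoids were cultures from those 5 animals (n = 5). In another experiment 3 organoid libraries in LPM stood beside 3 in LPM without FGF10, and in a separately counted one 3 organoid libraries in LPM stood beside 3 that were moved from LPM to CQ at day 10 and kept there to day 16 or 17. Breed, age and sex of the pigs were not given.

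LPM contained, per the labels, several agents that act on the pathway of these genes. Y-27632 at 10 µM inhibits the kinases ROCK1 and ROCK2, A-83-01 at 0.5 µM inhibits the TGF-beta type I receptor, and SB202190 at 10 µM inhibits p38 kinases. CHIR99021 at 2.5 µM, forskolin at 1 µM, FGF10 at 100 ng/ml and FGF2 at 10 ng/ml were present too, as were EGF, R-spondin 2, noggin, SHH, Wnt3a, insulin, prostaglandin E2, N-acetylcysteine and nicotinamide. The label of 3 libraries states that FGF10 was left out, and the labels used here give no recipe for the LPM of the CQ experiment. They do not give the make-up of CQ either, nor whether it held Y-27632, nor the day of the LPM libraries beside it, so medium and culture age cannot be told apart. Papilla RNA was taken with another extraction kit than organoid RNA and without a DNase step, so kit and tissue cannot be told apart either.

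SRF binds DNA together with partner proteins. When actin monomers are built into filaments, the partners MRTFA and MRTFB are released, enter the nucleus and drive SRF target genes that encode the filament system itself. The kinases ROCK1 and ROCK2 promote actomyosin contraction and stabilize filaments. In smooth muscle a related partner, MYOCD, keeps the contractile members at high levels, whereas epithelial cells carry mostly non-muscle forms of the same proteins.

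The libraries held 14667093 to 27767229 counts, with 20256 to 21149 genes detected in papillae, 17489 to 19049 in all organoids outside CQ, and 14014 to 16005 in CQ. CQ libraries also scattered more than counting alone gives: over genes with means of 10 to 30 counts their variance was 12.7 times the mean, against 1.13 to 4.82 times in the other 5 groups. The lowest group total read as detected was therefore raised to 38.2 counts in CQ. It was left at 3 counts elsewhere, without regard to the smaller excess there. In the CQ experiment the third LPM library stood apart from the other two (chi-square per degree of freedom of 35.4 to 52.1, against 5.89 between the other two).

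The contractile core of smooth muscle was abundant in papillae and close to absent in organoids. ACTA2, smooth muscle alpha-actin (chromosome 14, 100868145 to 100886732, minus strand, Sscrofa11.1), had 569, 386, 323, 442 and 558 counts-per-million units (CPM) in the papillae of pigs 1 to 5, and 0, 0.123, 0, 0 and 0.0985 CPM in their organoids. The groups did not overlap: 38556 counts in papillae stood against 6 in organoids, with a log2 fold change of -13.12 (SE 0.52, adjusted p = 1.37e-08, edgeR). The actin genes are nearly identical in sequence, and read pairs that fit several of them were not counted, so the split between actins is uncertain.

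MYH11, the smooth muscle myosin heavy chain (chromosome 3, 7002667 to 7143093, plus strand), had 610.1, 419, 415, 461 and 639 CPM in the 5 papillae and between 0.410 and 0.570 CPM in the 5 organoids. No organoid culture came near the lowest papilla, and MYH11 fell 988-fold (log2 -9.95, SE 0.23, adjusted p = 1.33e-09). CNN1, the smooth muscle calponin that binds actin and dampens myosin's ATPase (chromosome 2, 70183370 to 70190756, plus strand), had 110.0, 91.3, 99.2, 78.0 and 111 CPM in papillae and 0.0410 to 0.328 CPM in organoids. It fell 527-fold (log2 -9.04, SE 0.32, adjusted p = 6.30e-09).

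**Figure D1:**
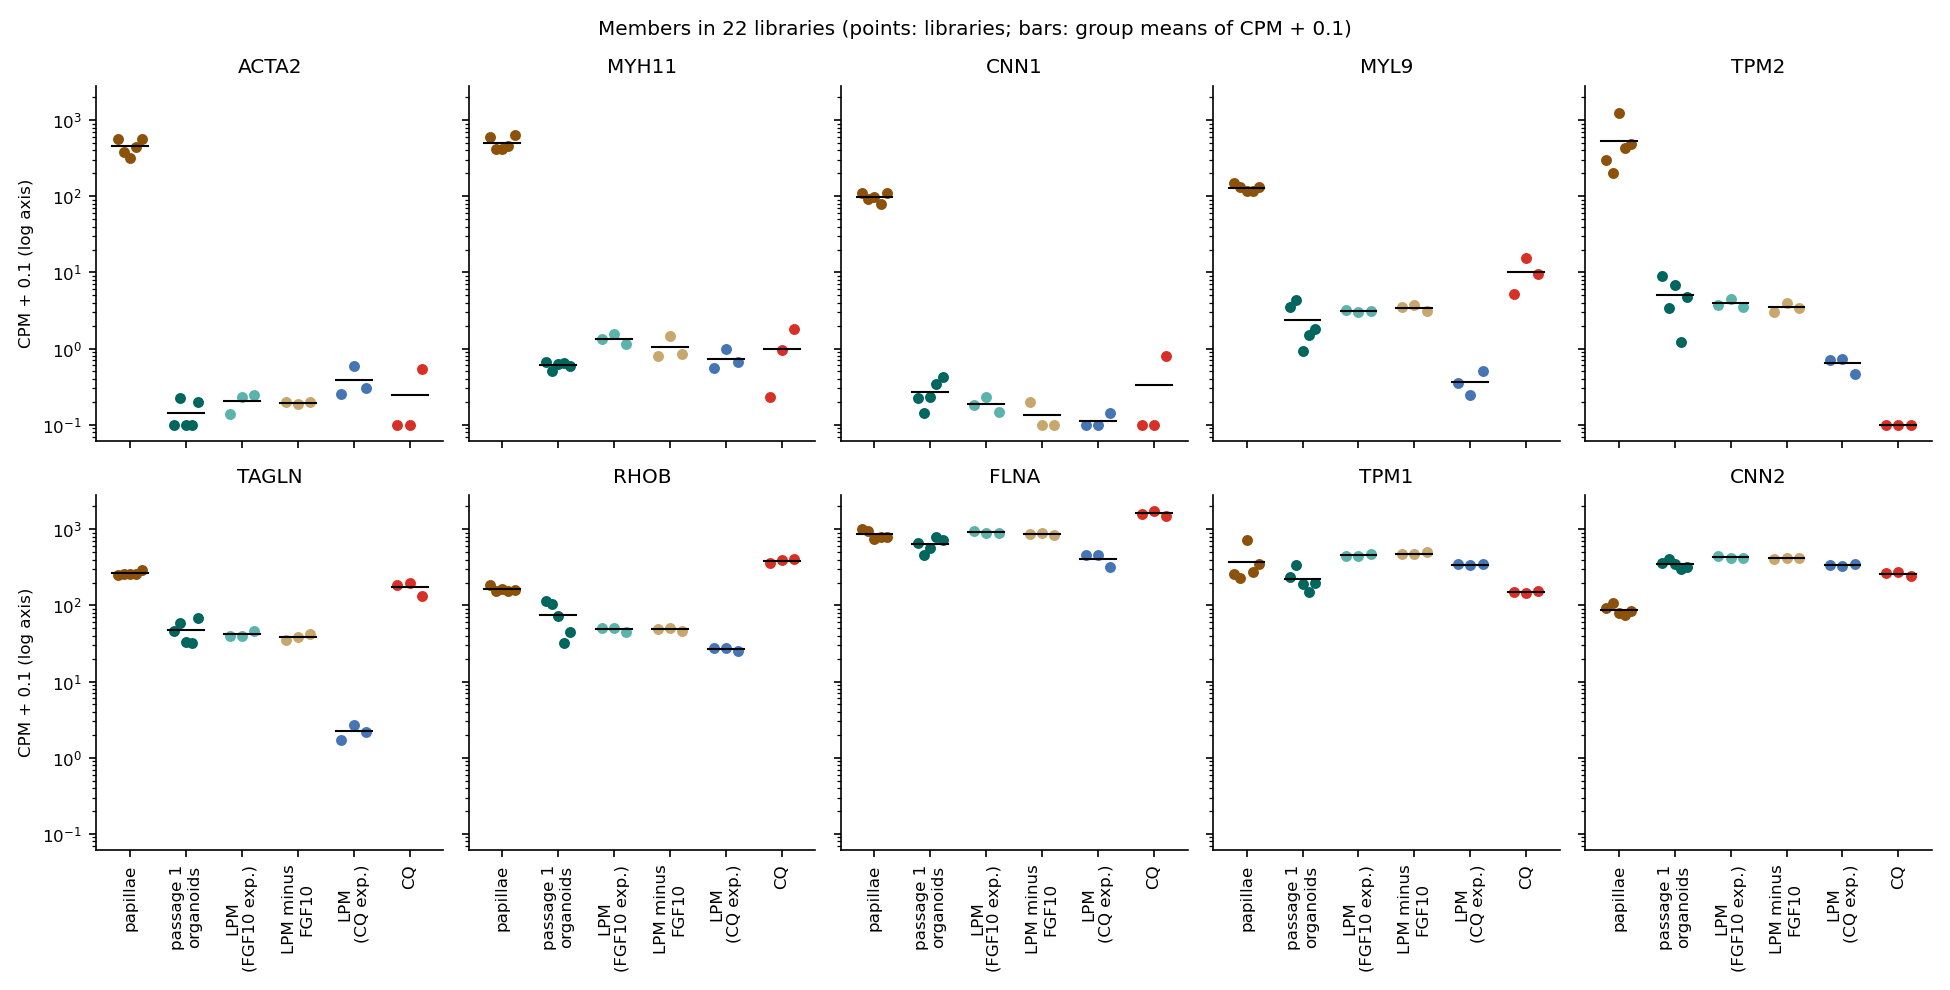
Each panel shows 1 gene, with CPM + 0.1 on a log axis, 1 point per library and a bar at the group mean, over the 6 groups. ACTA2, MYH11 and CNN1 are near the bottom of the axis in every organoid group, TAGLN and RHOB are high in papillae and in CQ, and CNN2 is the only panel in which the papillae are the lowest group.

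MYL9 and TPM2 also fell, but kept a measurable level in organoids. MYL9, a regulatory light chain whose phosphorylation starts contraction (chromosome 17, 39788165 to 39795240, plus strand), had 151, 133, 116, 117 and 132 CPM in papillae and 3.38, 4.22, 0.836, 1.40 and 1.71 CPM in organoids of pigs 1 to 5, a 56.3-fold fall (SE of log2 0.40, adjusted p = 4.57e-07). An RNA gene on the opposite strand, LOC110257438, spans the same place but shares 0 exonic bases with MYL9. TPM2, beta-tropomyosin, which lies along the actin filament (chromosome 1, 236402249 to 236410390, minus strand), had 304, 203, 1244, 426 and 486 CPM in papillae and 8.99, 3.36, 6.73, 1.12 and 4.70 CPM in organoids. The fall was 107-fold (SE of log2 0.70, adjusted p = 7.87e-06), and 71.2-fold without the papilla of pig 3.

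TPM1, alpha-tropomyosin (chromosome 1, 108986981 to 109016090, minus strand), overlapped between the groups. Papillae had 255, 230.0, 727, 278 and 350.4 CPM, and organoids 239.8, 340.1, 190.2, 148 and 198 CPM. Most of the gap came from pig 3: the fitted log2 difference was -0.72 (SE 0.33, adjusted p = 0.0750) with it and -0.31 (adjusted p = 0.261) without it. The call depended on single libraries and on the tool, since the adjusted p was 0.0354 without the organoids of pig 2 and 0.0480 with DESeq2.

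Papillae differed in how much skeletal muscle RNA they carried, and both tropomyosins had the same order over the pigs. The summed level of 13 skeletal muscle genes was 337 CPM in pig 2, then 1550 in pig 1, 2550 in pig 4, 3587 in pig 5 and 10101 in pig 3, and TPM1 and TPM2 each had exactly this order. ACTA2 and MYH11 did not have it: both were lowest in pig 3 and highest in pigs 1 and 5. ACTA1, the skeletal muscle actin, was at 87.3 CPM in pig 2 and 2764 CPM in pig 3. The part of skeletal muscle in the tropomyosin levels was not tested.

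**Figure D2:**
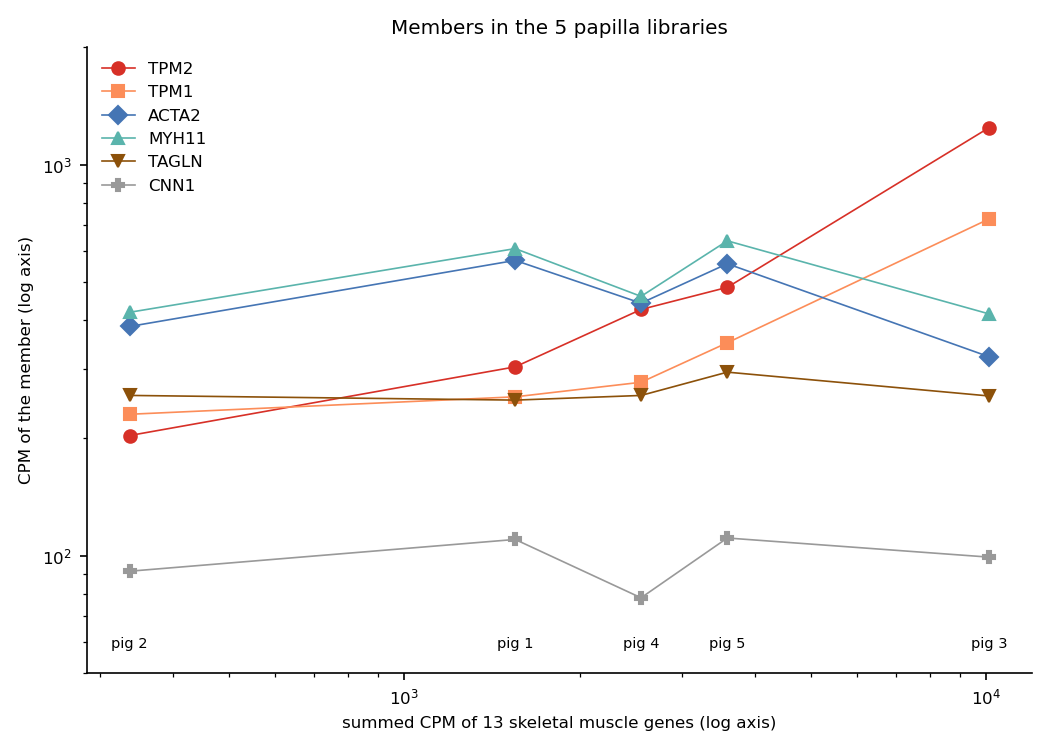
The horizontal axis is the summed CPM of 13 skeletal muscle genes and the vertical axis the CPM of a member, both on log axes, with 1 point per papilla. TPM1 and TPM2 are highest in pig 3 and lowest in pig 2, as the muscle sum is, whereas TAGLN stays between 250.0 and 295 CPM.

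TAGLN, RHOB and FLNA remained well expressed in organoids. TAGLN, transgelin, an actin cross-linker of smooth muscle and of cells under tension (chromosome 9, 44561756 to 44567385, plus strand), had 250.0, 257, 256, 257 and 295 CPM in papillae and 46.6, 58.1, 33.5, 32.4 and 67.9 CPM in organoids of pigs 1 to 5. No organoid culture reached the lowest papilla, and TAGLN fell 5.51-fold (SE of log2 0.21, adjusted p = 1.99e-06). Relative to its level, TAGLN spread less over papillae (250.0 to 295 CPM) than over organoids (32.4 to 67.9 CPM). In CPM its SD was larger in papillae than in organoids, where it was 15.4 CPM.

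RHOB, a short-lived endosomal small GTPase and itself an immediate early gene (chromosome 3, 117773400 to 117777569, minus strand), had 183, 157, 165, 155 and 161 CPM in papillae and 115, 104, 72.0, 31.9 and 45.0 CPM in organoids. The groups did not overlap, and the fall was 2.23-fold (SE of log2 0.30, adjusted p = 0.00556). The organoids of pig 1 were nearest to their papilla and those of pig 4 farthest. RN5-8S, a ribosomal RNA gene without a poly(A) tail, differed in the same direction, with 249.7 to 456 CPM in papillae and 5.25 to 30.2 CPM in organoids. What part RNA preparation has in the RHOB difference was not tested.

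FLNA, filamin A, which crosslinks filaments into networks (chromosome X, 124889934 to 124915000, plus strand), had 1017, 941, 752, 785 and 790.2 CPM in papillae and 661, 458, 566, 793 and 733 CPM in organoids. Organoids of pig 4 lay within the papilla range, and the difference was not called (log2 -0.42, SE 0.18, adjusted p = 0.0534). It was called without the organoids of pig 4 (adjusted p = 0.0263), with DESeq2 (0.0231), limma-voom (0.0343) and RLE size factors (0.0332).

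CNN2, the calponin of non-muscle cells (chromosome 2, 77376020 to 77385594, minus strand), was the only member that rose. It had 93.2, 108, 78.9, 73.7 and 84.1 CPM in papillae and 361, 403, 348, 305 and 323 CPM in organoids. Even the lowest organoid culture stood above the highest papilla, and the rise was 3.97-fold (SE of log2 0.14, adjusted p = 5.30e-07).

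Counted together, 7 of the 10 members fell in organoids, 1 rose and 2 were not called. Calls were common in this comparison: 67.5% of the 16311 genes in the test passed it, 32.4% upwards and 35.1% downwards. The same 7 members had no overlap between groups in the lower direction, against 29.6% of all genes, and CNN2 had none in the higher direction, against 24.5%. The median log2 fold change was -4.14 over the members and -0.01 over all genes. Scaling by library size alone moved the median of all genes to 0.28 and the higher share of calls from 48.0% to 59.6%, with the member counts at 7 and 1 in both.

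Markers of other cell types moved with the members. Where 32.4% of all genes rose and 35.1% fell, all 13 tested of 14 smooth muscle markers that are not members fell. Their summed level was 491 to 1263 CPM in papillae and 46.4 to 181 CPM in organoids, where DES, KCNMB1 and MYOCD were at 0. DES, the most abundant of them in papillae, had 27.3 CPM in pig 2 and 575 CPM in pig 3. Those pigs also had the lowest and the highest skeletal muscle sum. The part of skeletal muscle in the smooth muscle sum was not tested. All 8 fibroblast and 7 pericyte markers tested fell too, as did 12 of 12 skeletal muscle and 6 of 7 endothelial markers. In bulk tissue, fewer cells of a type and less RNA per cell cannot be told apart. The epithelial list had a sum of 7981 to 10715 CPM in papillae and 5200 to 7282 CPM in organoids, but 4 of its 6 tested genes rose, at least 2-fold each, and 2 fell. KRT8 was 6.33-fold higher and EPCAM 3.65-fold higher, and KRT5, the most abundant of the list in papillae, was 4.83-fold lower (adjusted p = 3.62e-05, 6.49e-05 and 8.20e-06).

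**Figure D3:**
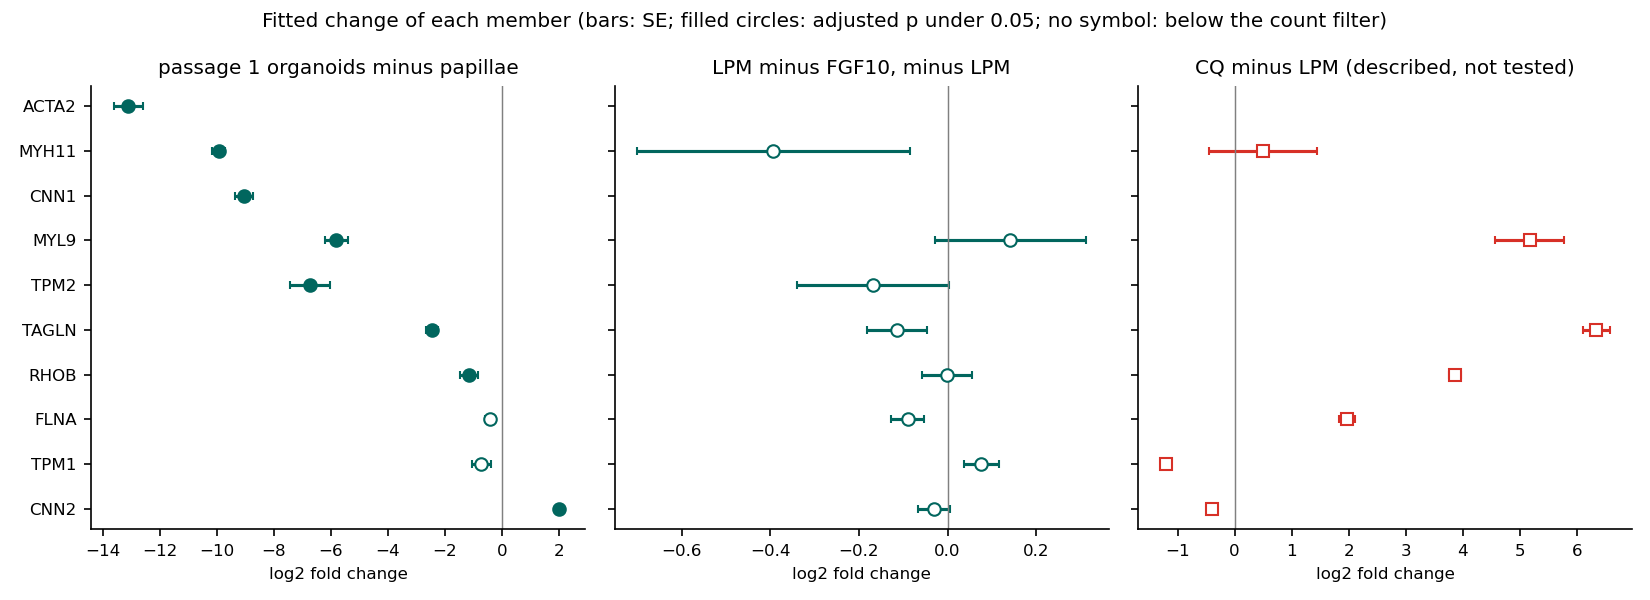
Points give each member's fitted log2 fold change and bars its SE, in 1 panel per comparison with its own scale, and filled circles mark an adjusted p under 0.05. In organoids against papillae the changes run from -13.12 for ACTA2 to 1.99 for CNN2, in LPM without FGF10 no member is filled, and in CQ the open squares, which carry no test, reach 6.34 for TAGLN.

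Set against their own paralogs per kilobase, members held a smaller joint share in organoids within 5 of 6 protein families. The light chain family held MYL9 and the non-muscle regulatory light chain MRLC2. No skeletal light chain was included, and MYL12A, also listed for this family, was not found by name among the genes counted. MYL9 made up 70.4% ± 2.20 of these counts in papillae (SD, n = 5) and 1.51% ± 0.803 in organoids. Of the counts of MYH9, MYH10, MYH11 and MYH14, the smooth and non-muscle heavy chains without the skeletal ones, MYH11 held 32.7% ± 4.60 in papillae and 0.0298% in organoids, where MYH9 held 64.5% ± 8.36 and MYH14 31.8% ± 8.36. ACTA2 held 12.7% ± 3.18 of actin counts in papillae and 0.00177% in organoids, where ACTG1 held 84.3% ± 0.488 and ACTB 15.7% ± 0.490.

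TPM1 and TPM2 together went from 52.0% ± 16.6 to 16.6% ± 4.75 of tropomyosin counts. Within that sum TPM2 went from 38.3% ± 14.5 to 0.731% ± 0.461, while TPM1 was at 13.8% ± 2.28 and 15.9% ± 4.64. RHOB went from 28.3% ± 1.50 to 8.47% ± 3.15 of the counts of RHOA, RHOB and RHOC. The shares of MYL9, MYH11, ACTA2, TPM1 with TPM2, and RHOB each differed with no overlap between the groups of 5 (exact two-sided permutation test, p = 0.00794, the smallest this design allows, adjusted p = 0.00952 over 6 families). Paired by pig, 5 pairs allow no exact p under 0.0625, and the 5 shares then had an adjusted p of 0.0750.

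The calponin and transgelin family kept its member share while the members traded places. CNN1, CNN2 and TAGLN together held 38.9% ± 2.38 in papillae and 39.3% ± 4.60 in organoids, a difference of 0.384 percentage points (exact permutation p = 0.897). Within it TAGLN went from 23.9% ± 1.59 to 5.40% ± 1.77 and CNN1 from 8.16% ± 1.14 to 0.0179%, and CNN2 from 6.85% ± 0.991 to 33.9% ± 3.73. TAGLN2, the transgelin of epithelial and blood cells, was the largest gene of the family in both, with 53.5% ± 2.67 and 47.0% ± 3.93.

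**Figure D4:**
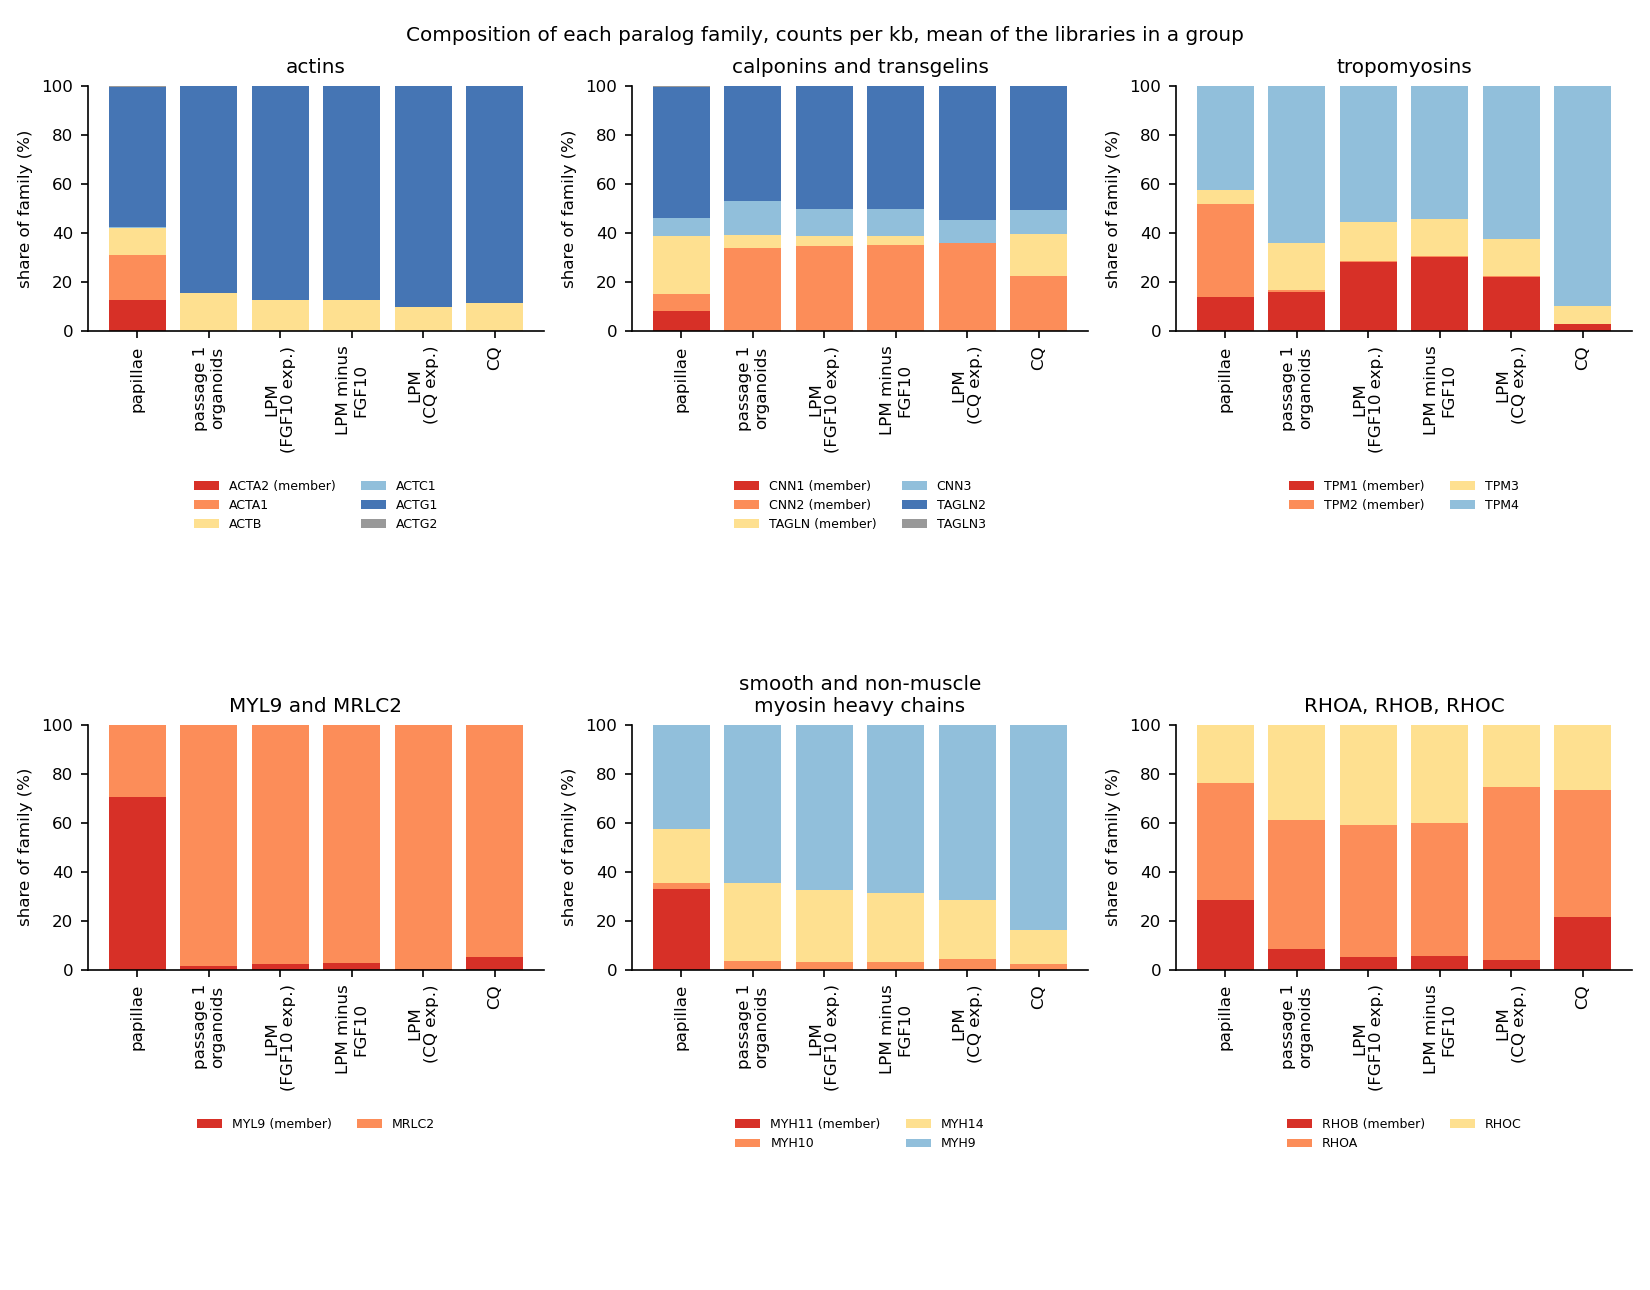
Stacked bars give the mean share of each gene in its family, in percent of counts per kilobase, for the 6 groups. MYL9, MYH11, ACTA2 and TPM2 take up large parts of their bars only in papillae, and in CQ the bars hold more TAGLN, RHOB and TPM4 than in the LPM beside it.

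Leaving FGF10 out of LPM moved no member past the test. Of the 10 members 8 had enough counts to be tested and 0 were called by edgeR, where 1.78% of 14262 genes were, 0.582% higher and 1.2% lower. By DESeq2 and by limma-voom 0 were called as well. At an unadjusted p under 0.05 edgeR had 1 member, FLNA, with 953, 903 and 904 CPM in LPM and 859, 882 and 853 CPM without FGF10. Its groups did not overlap, as was so in the lower direction for 8.55% of all genes and in the higher one for 8.09%, and the difference was small (log2 -0.09, SE 0.04, unadjusted p = 0.0229, adjusted p = 0.307).

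TAGLN and RHOB overlapped between these media. TAGLN had 39.1, 39.9 and 46.7 CPM in LPM and 35.2, 38.4 and 42.2 CPM without FGF10 (log2 -0.11, SE 0.07, adjusted p = 0.542). RHOB had 51.1, 50.7 and 44.3 CPM against 48.4, 51.1 and 46.6 CPM, with a fitted log2 difference whose SE was 0.06 (adjusted p = 0.998). The other tested members, CNN2, MYH11, MYL9, TPM1 and TPM2, had fitted log2 differences from -0.39 for MYH11 to 0.14 for MYL9 and adjusted p-values from 0.464 to 0.822. ACTA2 had 7 counts in LPM and 6 without FGF10, and CNN1 6 and 2, too few to test.

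In CQ the members split into higher, lower and undetected ones. Since the list was drawn up with this comparison in view, its values are a description and carry no p-value. The SEs given with them are not to be read as a test. TAGLN had 1.63, 2.60 and 2.11 CPM in LPM and 185, 197 and 134 CPM in CQ, 81.0-fold higher (log2 6.34, SE 0.23). RHOB had 27.2, 27.9 and 24.9 CPM in LPM and 361, 390.2 and 412 CPM in CQ, 14.5-fold higher (log2 3.86, SE 0.11). For both genes the lowest CQ library was many times above the highest LPM library.

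MYL9 and FLNA were higher as well. MYL9 had 0.255, 0.147 and 0.405 CPM in LPM, from 18 counts in all, and 5.18, 15.6 and 9.54 CPM in CQ, 36.0-fold higher (SE of log2 0.60). Its CQ mean of 10.1 CPM compares with 129.9 CPM in papillae. FLNA, from 456, 457 and 321 CPM to 1612, 1726 and 1506 CPM, was 3.92-fold higher, and 3.50-fold without the third LPM library, the one that stood apart.

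TPM1 and CNN2 were lower in CQ. TPM1 had 347, 338 and 346 CPM in LPM and 148, 144 and 153 CPM in CQ, 2.31-fold lower (log2 -1.21, SE 0.09). CNN2 had 339.9, 334 and 352 CPM in LPM and 263, 275 and 241 CPM in CQ, 1.32-fold lower (SE of log2 0.09). TPM2 had 34 counts over the 3 LPM libraries and 0 over the 3 CQ libraries, and since a total as low as that in LPM would not have counted as detected in CQ, no direction was read for it. In neither TPM1 nor CNN2 did a CQ library reach the LPM range.

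The 3 genes of the contractile core were at or near the detection limit. ACTA2 had 18 counts in LPM and 7 in CQ, CNN1 1 and 11, all of the latter in 1 library. MYH11 had 41 and 43 counts and overlapped, with a fitted log2 difference of 0.50 (SE 0.94) that became -0.36 without the third CQ library. Of the 7 members tested in the fit, 4 had no overlap in the higher direction and 2 in the lower one, beside 28.2% and 32.9% of 13827 genes. At least 2-fold higher were 4 members, beside 11.4% of all genes, and at least 2-fold lower was TPM1, beside 21.3%. The same 4 members make up both higher counts. They include TAGLN and RHOB, which were known to be higher in CQ when the list was chosen. These counts are therefore no test of the members. Called genes made up 47.9% of the 13827 genes.

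Beside 23.1% higher and 24.8% lower of all genes in CQ, smooth muscle markers other than the members gave 1 higher and 2 lower of 6 tested. Their sum was 152 to 176 CPM in LPM and 118 to 139 CPM in CQ. DES and KCNMB1 were at 0 in both groups, and ACTG2, MYOCD, PLN and SYNPO2 at 0 in CQ alone. ACTG2 had 1 count in LPM and MYOCD 4, below the 38.2 counts that CQ needed for detection, so no direction was read for them. Fibroblast markers summed to at most 1.39 CPM in CQ. RN5-8S was at 2.26 to 3.24 CPM in LPM and 1834 to 2141 CPM in CQ, and CQ libraries had fewer counts and fewer detected genes. The part of RNA quality in the member values was not tested.

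Family composition in CQ restates the same counts as shares, so the TAGLN and RHOB shares are no separate support. TAGLN went from 0.257% ± 0.0615 to 17.2% ± 2.29 of its family while CNN2 went from 35.8% ± 2.14 to 22.4% ± 0.199 (SD, n = 3 each), and the members' joint share was 36.1% ± 2.13 and 39.6% ± 2.26. RHOB went from 3.92% ± 0.548 to 21.6% ± 1.74 of the counts of RHOA, RHOB and RHOC, and RHOA and RHOC rose 1.92-fold and 2.73-fold (adjusted p = 6.49e-05 and 3.09e-05). Among tropomyosins TPM4, a non-muscle form, held 62.5% ± 3.99 in LPM and 89.8% ± 0.244 in CQ, and TPM1 22.2% ± 2.17 and 2.91% ± 0.167.

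Levels of different genes were compared per length, as FPKM (CPM divided by the exonic length in kilobases), with all 22 libraries on 1 scale. In papillae the order was ACTA2 at 349 ± 82.1 FPKM, TPM2 at 194 ± 150.4, TAGLN at 191 ± 11.6, MYL9 at 110.1 ± 12.8, FLNA at 98.2 ± 14.2, MYH11 at 81.6 ± 17.1, TPM1 at 66.1 ± 36.8, CNN1 at 65.3 ± 9.26, RHOB at 58.7 ± 4.36 and CNN2 at 55.0 ± 9.06. TAGLN and MYL9 were the only neighbours in this order whose ranges over the 5 papillae did not overlap. The order was turned over in passage 1 organoids, where CNN2 led at 212 ± 24.3 FPKM, ahead of FLNA at 71.4 ± 14.9, TPM1 at 39.0 ± 13.1, TAGLN at 33.7 ± 10.8 and RHOB at 25.6 ± 12.7, and the means of the other 5 members were 1.91 FPKM or less. CNN2 stood clear of FLNA in every organoid culture, while FLNA, TPM1, TAGLN and RHOB overlapped from neighbour to neighbour. In CQ, FLNA came first at 172 ± 11.5 FPKM, followed by CNN2 at 151 ± 9.89, RHOB at 129 ± 8.89 and TAGLN at 116 ± 22.2, with RHOB and TAGLN overlapping.

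Over the 6 groups, ACTA2, CNN1, MYH11, MYL9, TAGLN and TPM2 were highest in papillae, FLNA and RHOB in CQ, and CNN2 and TPM1 in LPM of the FGF10 experiment or its FGF10-free partner. TAGLN in CQ was second, below papillae by more than the spread of either group. RHOB in CQ, at 129 FPKM, stood above papillae at 58.7 FPKM, and those above passage 1 organoids at 25.6 FPKM, whose range of 11.3 to 40.1 FPKM took in both groups of the FGF10 experiment. LPM of the CQ experiment was lowest for RHOB, at 8.65 to 9.52 FPKM. LPM libraries of the separate experiments had unlike levels: TAGLN was at 28.9 ± 2.73 FPKM in the FGF10 experiment and 1.48 ± 0.333 FPKM in the CQ experiment, a ratio of 19.6. MYL9 was at 2.44 FPKM and 0.220 FPKM, and the ratio was 7.01 for TPM2, 2.21 for FLNA and 1.80 for RHOB, and 1.24 for CNN2. These experiments were counted separately and their cultures' ages were not given, so this is not a tested difference.

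The genes whose levels over the 22 libraries were most like those of TAGLN were EHD2 (Pearson r = 0.97 of log2 CPM + 1), MCOLN1 (0.97), FAM46B (0.96), METRNL (0.96) and FAM84A (0.95), among 10375 genes compared. EHD2, a membrane ATPase of caveolae, had means of 98.5 CPM in papillae, 25.3 in passage 1 organoids, 3.84 in LPM of the CQ experiment and 65.8 in CQ. For RHOB they were MIR6782 (0.98), RN5-8S (0.97), KLHL21 (0.94), PSEN2 (0.94) and GPS2 (0.93). RN5-8S is the ribosomal RNA named above, and MIR6782 reached 712 to 928 CPM in CQ from 2.75 to 4.38 in LPM. Libraries of 1 group share tissue, medium and sequencing, so these values describe 6 groups more than 22 independent points.

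The other genes of the pathway, 106 that are not members, were spread over 5 lists: SRF-MRTF targets, immediate early genes driven by SRF and its ternary complex partners, SRF with its cofactors, ROCK and myosin regulators, and the core of the actin filament. In organoids against papillae 51 of 105 tested rose and 29 fell, with a median log2 change of 0.54 against -0.01 over all genes, or 48.6% and 27.6% beside 32.4% and 35.1% of all genes. The actin filament core had 24 of 40 higher and 8 lower, among them TMSB10, a monomer-binding thymosin, 5.76-fold higher, and FLNC, the muscle filamin, 5.92-fold lower (adjusted p = 1.05e-07 and 3.56e-05). SRF-MRTF targets had 11 of 30 higher and 13 lower, or 36.7% and 43.3%. CYR61, a secreted matrix protein, rose 8.85-fold and FHL2, a LIM protein, 7.47-fold, whereas TGFB1I1, a focal adhesion partner, fell 58.8-fold and ITGA5, the fibronectin receptor subunit, 72.1-fold (adjusted p at most 6.02e-07).

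SRF itself did not pass the test between papillae and organoids, with means of 58.4 and 50.6 CPM (adjusted p = 0.229). Its partners changed little: MRTFA, listed as MKL1, fell 1.43-fold and MRTFB, listed as MKL2, 1.27-fold (adjusted p = 0.00916 and 0.00362). MYOCD had 40 counts in papillae and 0 in organoids, at least 20.3-fold lower against a floor of 3 counts over the group. That floor was not raised for the organoids' variance of 4.82 times the mean. A floor raised as in CQ would give a smaller bound. ROCK1 rose 2.04-fold and ROCK2 1.86-fold, while MYLK, the kinase that phosphorylates the regulatory light chain, fell 4.59-fold (adjusted p = 2.97e-05, 5.91e-05 and 0.00275). Of 9 immediate early genes 1 rose, EGR1 4.31-fold, and 1 fell, FOSB 21.3-fold (adjusted p = 0.00237 and 2.11e-05). Over all genes 32.4% rose and 35.1% fell.

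Without FGF10, 1 pathway gene of 103 tested rose and 1 fell, or 0.97% each, beside 0.582% and 1.2% of all genes. Of the 106 pathway genes counted, 7 had no overlap in the higher direction and 21 in the lower one. Over all genes tested the shares with no overlap were 8.09% and 8.55%. CYR61 had 440.3, 422 and 379.5 CPM in LPM and 347, 369.5 and 341 CPM without FGF10, 1.17-fold lower with no overlap (adjusted p = 0.00499). LIMA1, an actin-bundling protein of epithelia, was 1.11-fold higher (adjusted p = 0.0463). CTGF, the close relative of CYR61, was not called. It had 84.1, 84.6 and 80.2 CPM in LPM and 70.8, 76.4 and 74.6 CPM without FGF10. The titles of these libraries say biological replicate but name no pig, so the p-values measure only the spread between these samples. At low counts their variance was 1.13 times the mean in LPM and 1.23 times without FGF10.

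In CQ against LPM 42 of 101 tested pathway genes rose and 22 fell, with a median log2 change of 0.28 against -0.07 over all genes. Among SRF-MRTF targets 18 of 28 rose, or 64.3%, and 4 fell, or 14.3%, beside 23.1% and 24.8% of all genes. TPM4 rose 4.71-fold, from 413 to 1944 CPM, and CSRP1, a LIM protein bound to actin bundles, 4.39-fold, from 57.2 to 251 CPM (adjusted p = 1.62e-06 and 3.77e-06). CTGF went the other way, falling 10.4-fold from 33.1 to 3.18 CPM, and FHL2 fell 2.51-fold (adjusted p = 1.52e-06 and 5.27e-06). Nothing in the labels says that the libraries of the CQ experiment came from separate cultures, so its p-values measure only the spread between these samples, which may be technical.

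The actin filament core had 15 of 39 tested genes higher and 8 lower in CQ, or 38.5% and 20.5%, beside 23.1% and 24.8% of all genes. Among the paralogs of the members, MYH9, the main non-muscle myosin, rose 2.82-fold, ACTB 2.06-fold and ACTG1 1.73-fold (adjusted p at most 0.000102), and MRLC2 1.55-fold (adjusted p = 0.00172). ENAH, which lengthens filaments, rose 3.37-fold, while GSN and CAPG, which sever or cap them, fell 5.53-fold and 6.29-fold (adjusted p at most 9.07e-06). TAGLN2 was not called (1.12-fold, adjusted p = 0.236), nor were ROCK1 (0.376), ROCK2 (0.608) and MYLK (0.0529).

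The transcription factors of the pathway had both directions in CQ. SRF rose 1.63-fold and MRTFA 2.12-fold (adjusted p = 0.00426 and 0.000232), and MRTFB was not called (adjusted p = 0.280). The ternary complex factors ELK4 and ELK3 fell 2.71-fold and 2.30-fold (adjusted p = 0.000776 and 0.00100). Immediate early genes had 3 higher and 5 lower of 9, or 33.3% and 55.6%, beside 23.1% and 24.8% of all genes. EGR1 fell 7.79-fold and JUNB 6.00-fold, and IER2 rose 1.78-fold (adjusted p at most 0.000838). FOSB, at a low level, had 0.613, 0.637 and 0.446 CPM in LPM and 14.7, 6.59 and 9.10 CPM in CQ.

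**Figure D5:**
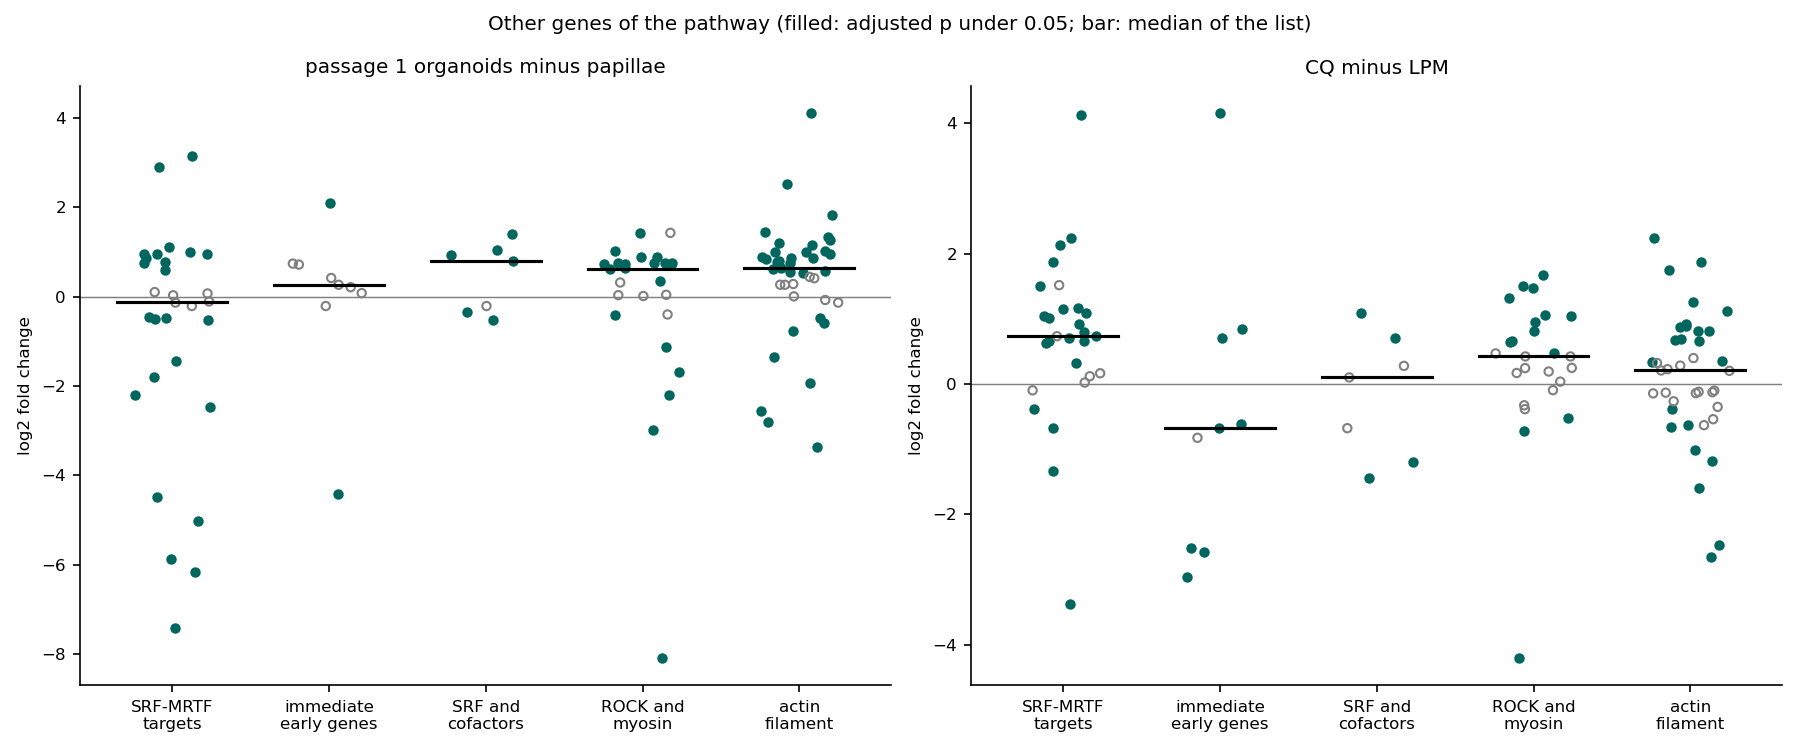
Each point is a pathway gene that is not a member, by list, with its fitted log2 fold change on the vertical axis, filled where the adjusted p is under 0.05, and bars at the list medians. In CQ the SRF-MRTF targets have a median of 0.73 and the immediate early genes one of -0.68, and in organoids against papillae these medians are -0.12 and 0.27.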

How the data were processed

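The authors deposited raw read counts per gene for 22 poly(A) RNA libraries, made with featureCounts 2.0.3 (16 libraries) or 2.0.6 (the 6 of the CQ experiment), per the file headers. The counting ignored strand, counted pairs that overlap several genes for each, and left out pairs mapped to several places, per the file headers. Alignment used STAR 2.7.10b, per the submitters' processing notes. Entries without a gene name (0.326% to 0.477% of counts in the CQ experiment) were left out.

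Each comparison was fitted on its own groups with edgeR 4.0.16 (TMM factors, filterByExpr, quasi-likelihood test, R 4.3.3). Genes were called at a Benjamini-Hochberg adjusted p under 0.05 over all genes tested. Each SE was the size of the log2 fold change divided by the square root of the F statistic of that test. DESeq2 1.42.0 and limma-voom 3.58.1 were among the alternatives. The fit was also run on simulated data, with a common spread for all genes and independent libraries. These data differ in both respects, so that run cannot vouch for the p-values here. CPM used each library's total over the genes kept by the filter, times its TMM factor within the comparison. FPKM used the TMM factors over 22 libraries.

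Papilla and organoid libraries were paired by pig, per the labels. Deviations of same-pig libraries correlated at 0.036 to 0.110. Members and lists were chosen with earlier results of these data known. Named genes were the members, their paralogs and SRF regulators, at most 2 called genes per direction in each list (average log2 CPM 3 or more), each marker list's most abundant gene, and the 5 genes most like TAGLN and RHOB. Of the gene lists drawn up, 1 pathway list, 1 paralog family and single genes are not reported here, so family p-values were adjusted over 6 families.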

Additional observations from a re-analysis of the deposited data

Results flagged for a closer look

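In 3 papilla values 1 pig stood far from the other 4, out of 20 groups of 5 libraries examined (each member in papillae and in passage 1 organoids), where chance alone gives about 1 in 20. TPM1 was at 726.5 CPM and TPM2 at 1243.6 CPM in the papilla of pig 3, against group medians of 278 and 426 CPM. That papilla had the highest skeletal muscle sum, 10101 CPM, and the part of skeletal muscle in both values was not tested. TAGLN was at 294.7 CPM in the papilla of pig 5, against a median of 257 CPM and a range of 250.0 to 257 CPM in the other 4 papillae. Without pig 3 the TPM2 fall was still called (log2 -6.15, adjusted p = 8.61e-06, edgeR).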

How the results depend on the processing

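The single member called higher in organoids and the 0 members called without FGF10 held in each alternative run: RLE size factors, library size alone, no count filter, DESeq2, limma-voom, the replicate block and each library left out. The 7 members called lower in organoids were called in each of these too, and FLNA or TPM1 joined them under 5 settings, giving 8, or 9 with DESeq2. The pathway count without FGF10 moved from 1 higher to 0 with the replicate block, and from 1 lower to 3 with no filter and to 2 with DESeq2, limma-voom or the replicate block; leaving out a library gave 0 to 1 higher and 0 to 2 lower. The RHOB difference without FGF10 changed sign, at 0.0159 with library size alone, 0.0004 with limma-voom and 0.0004 with the replicate block, and -0.0618 to 0.0348 with a library left out. In CQ, 1 to 2 members were at least 2-fold lower when a library was left out, and the MYH11 difference ran from -0.3618, without the third CQ library, to 0.9859. Pairing by pig (the replicate block) left the family share differences at -12.69, -35.41, -68.87, -32.68 and -19.78 percentage points with an adjusted p of 0.0750, the design's limit; in the calponin family the difference ran from -1.39, without the organoids of pig 2, to 1.82 with a library left out, and was -0.51 without the papilla of pig 4. For same-numbered libraries of the FGF10 and CQ experiments the correlations of deviations were -0.046 to 0.047 and -0.008 to 0.021. Same-pig libraries gave only 0.036 to 0.110, so this measure cannot decide whether the numbers pair the libraries. The cause of these shifts was not tested. Depth limits ACTA2 and CNN1 in organoids, and MYH11 and TPM2 in the CQ experiment.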
